A study of Rattus norvegicus with 18 samples.

Results

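The 9 microarrays described here measured scraped mucosa of the proximal colon, chosen as the arrays whose titles name that region, out of 18 arrays in the series; the other 9 are of the distal colon of the same animals. All 9 rats were male Sprague Dawley animals. They were fed modified AIN-93G for 10 days, were given the colon carcinogen azoxymethane under the skin at 15 mg/kg and were killed 6 h later. A piece 4 cm long was scraped in each region after 0.5 cm at the ends had been discarded, and 4.5 µg of RNA went to each array. Every rat was injected, so no untreated level exists for any gene. The rats had been placed in 2 allocation groups, but no label used here gives the allocation of a single rat, so the 9 arrays were treated as 1 group. They carry the rat numbers 1 to 8 and 10, and rat 9 was not analysed here. The series names separate rats, so the spread given throughout is a spread between animals with 1 array each, and it includes dissection and array error.

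Azoxymethane is converted in the body to an alkylating agent that damages DNA in colonic epithelium, where the p53 protein then switches on arrest and death genes such as Cdkn1a and Bbc3. The colon is patterned along its length by the Hox genes, with the most posterior members expressed towards the rectum, and its mucosa holds absorptive cells, goblet cells, hormone cells, B-cell follicles and a thin layer of smooth muscle above the main muscle wall. In bulk samples such as these scrapings, fewer cells of a type and less RNA per cell cannot be told apart.

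Levels are given as log2(signal + 16) after quantile normalization of the 9 arrays, so a difference of 1 is a doubling and low signals are compressed. After the dimmest 30% of probe sets by mean had been left out, 11441 named genes remained. A probe set's brightness depends on its own sequence, so levels are compared between arrays. Rankings of genes by brightness describe the signal and not the amount of transcript. Between pairs of arrays the correlation over probe sets ran from 0.885 to 0.976, with a median of 0.962. The array of rat 3 stood apart, with a mean correlation of 0.908 with the others, against 0.949 to 0.963 for the others. The ratio of 3′ to 5′ signal on the Gapdh control probes, a measure of RNA integrity, lay between 1.19 (rat 6) and 1.39 (rat 10), with 1.28 in rat 3. On the actin control probes the ratio was higher, from 1.80 (rat 8) to 2.40 (rat 1), with 1.95 in rat 3. No pair of arrays shared more than 0.00322% of identical values, so none was a copy of another.

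Epithelial transcripts were among the brightest signals and varied little. Among the 15 genes whose probe sets had the highest mean were the simple-epithelium keratins Krt8 and Krt19, the adhesion molecule Epcam and the lectin Lgals4. The goblet cell genes Muc2, Agr2 and Clca1 were there too, with Lypd8, which keeps bacteria away from the colonic surface. Genes not particular to epithelium were also among the 15, such as the mitochondrial COX1 and COX2 and B2m. Krt8 ran from 13.65 to 13.81 (median 13.76, SD 0.06, n = 9), Epcam from 13.61 to 13.76 (median 13.68, SD 0.05) and Muc2, the main gel-forming mucin, from 13.47 to 13.70 (median 13.56, SD 0.09). In every array these 3 epithelial genes thus stayed within a factor of 1.18. Such bright probe sets may be near the top of the scale, where differences are compressed; this was not tested. Steadiest among the brighter genes were Actg1, Cnih1, Srsf11, Vapa, Rps28, Eef1a1, Cox4i1 and Atp5f1b; the secretory cargo receptor Cnih1, for one, stayed between 11.54 and 11.64 (median 11.60).

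Most genes varied little between the rats and a minority varied greatly. The median SD over the 9 arrays was 0.22, and 8258 genes (72.2%) stayed within a 2-fold range. A range of at least 4-fold was reached by 897 of 11441 genes (7.84%), and one of at least 16-fold by 152. Rat 3 held the highest value for 516 of the 897 and rat 2 the lowest for 339. Without rat 3, 449 genes had a 4-fold range, and without rats 3 and 6, 359. The first principal component carried 42.8% of the variance and set rat 3 against the rest, with muscle genes at one end and Sval1 and Hoxb13 at the other. The second carried 17.6%, led by B-cell genes, and the fourth 6.82%, led by pancreatic enzymes and highest in rat 4. Grouping the 300 most variable genes by correlation gave 5 clusters of 10 or more, of 173, 69, 29, 12 and 11 genes, which are described as muscle and matrix, lymphoid, axial, pancreatic, and a mixed cluster led by Btnl8. The clusters come from the same values and carry no test.

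**Figure D1:**
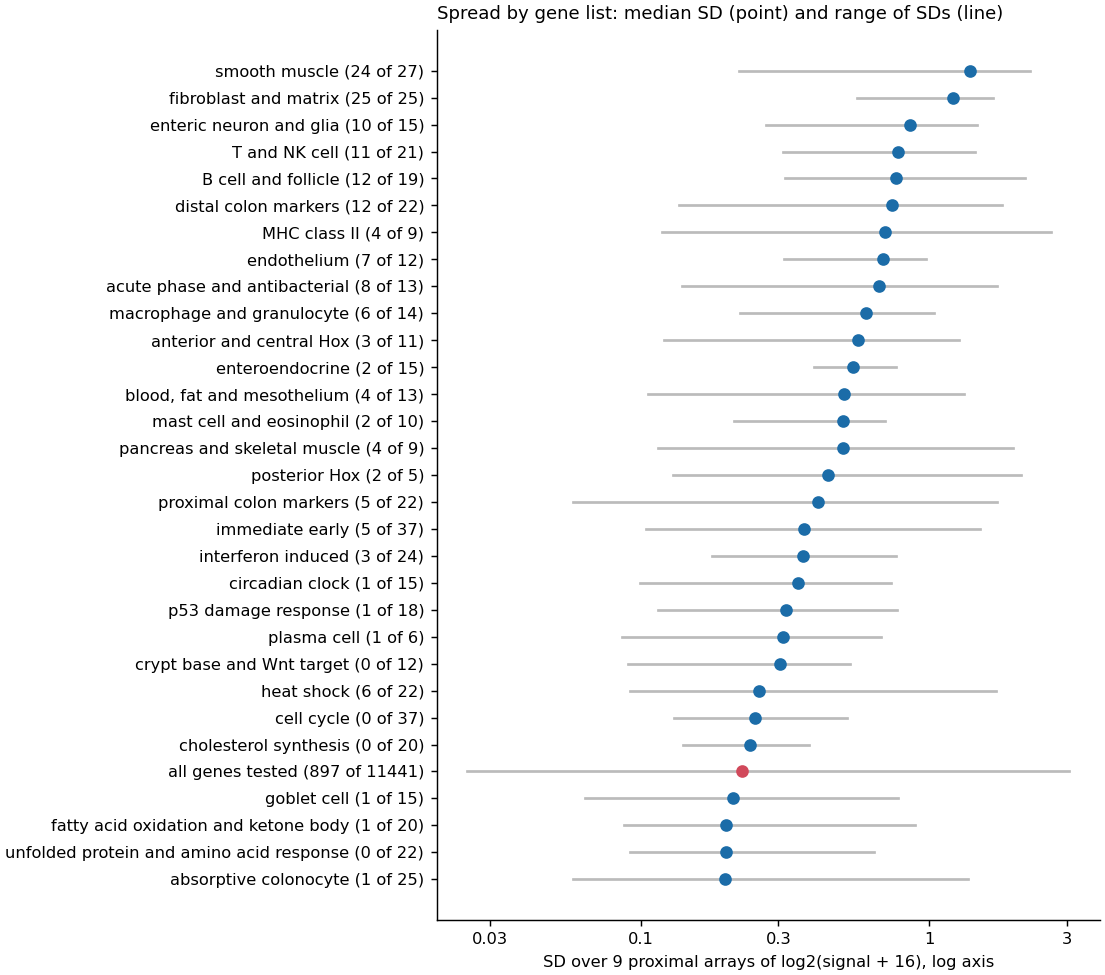
Spread of each gene list over the 9 proximal arrays: points are the median SD of log2(signal + 16) of a list's measured members, lines join the lowest and highest SD, on a log axis, and the brackets give members with a 4-fold range of those measured. Smooth muscle and matrix lists lie highest and absorptive colonocytes lowest, with all genes tested (red) at a median SD of 0.22.

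Smooth muscle, connective tissue and enteric neuron genes made up the widest variation, and most of them were highest in 1 animal. Of 27 smooth muscle genes measured, 24 had a 4-fold range, as did 25 of 25 fibroblast and matrix genes and 10 of 15 neuron and glia genes, against 7.84% of all genes. Actg2, the actin of visceral smooth muscle, ran from 6.15 to 13.57 with a median of 7.48. Rat 3 was the high array, and the other 8 lay between 6.15 and 9.02. Tagln, which encodes an actin-binding protein of smooth muscle, stood at 12.88 in rat 3 and at 5.39 to 9.45 in the others (median of all 9, 7.44). Calponin (Cnn1) read 12.72 in rat 3 against 5.95 to 8.04. For desmin (Des), the intermediate filament of muscle, the values were 12.55 against 6.24 to 8.34. Rat 3 thus overlapped with no other array in these genes, and rat 2 was the lowest for Actg2, Tagln and Des.

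**Figure D2:**
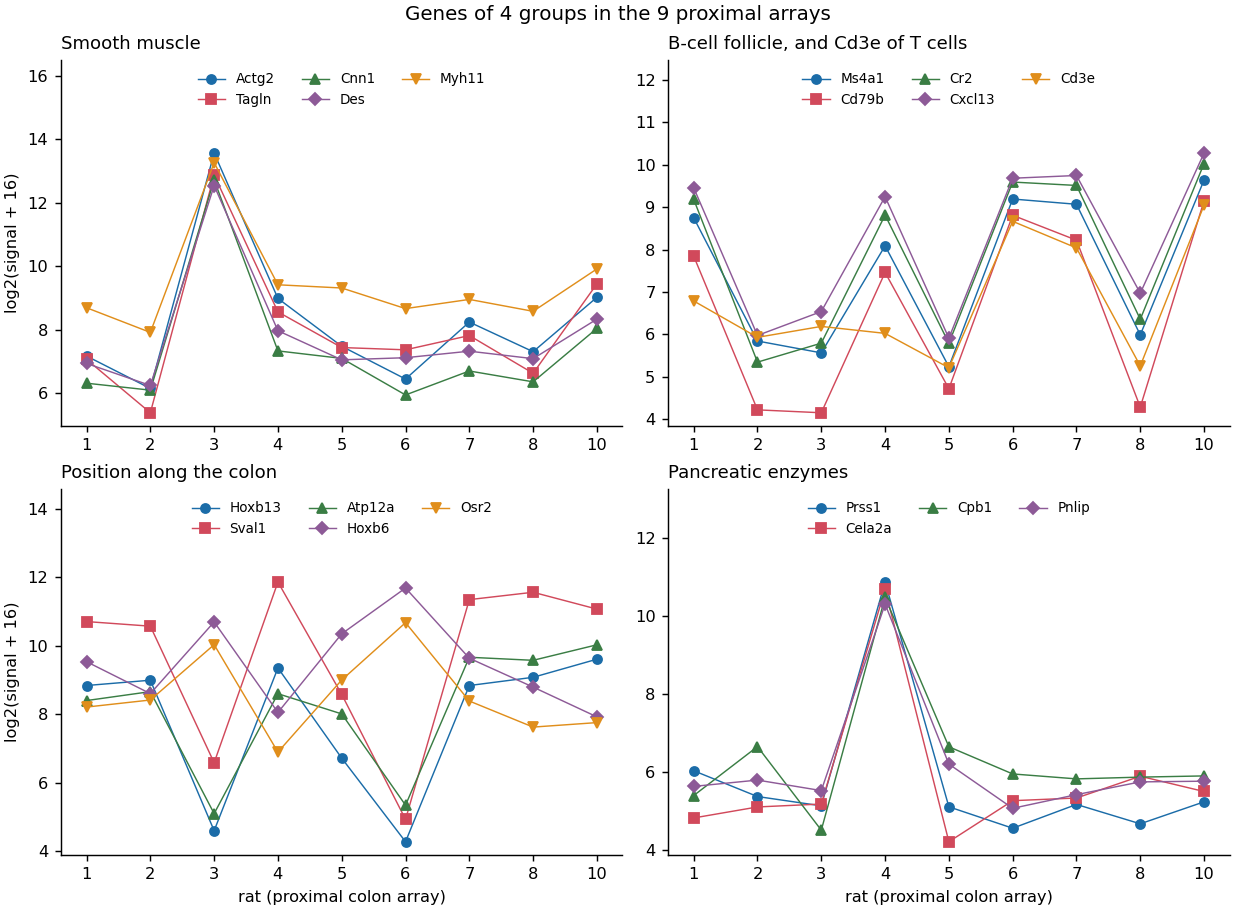
Signal of 19 genes in each of the 9 proximal arrays (y axis, log2(signal + 16); x axis, rat number), in 4 panels; lines join values of 1 gene and imply no order among rats. Smooth muscle genes peak in rat 3, B-cell genes are high in rats 1, 4, 6, 7 and 10, Hoxb13, Sval1 and Atp12a dip in rats 3 and 6 while Hoxb6 and Osr2 peak there, and pancreatic enzymes peak in rat 4.

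To find the genes that went with the muscle wall, the level of each gene was fitted on that of Myh11, the smooth muscle myosin heavy chain, over the 9 arrays with limma, with Benjamini-Hochberg adjustment over all probe sets. Myh11 itself read 13.27 in rat 3 and 7.92 to 9.92 elsewhere. At an adjusted p below 0.05, 677 genes rose with Myh11 (5.92% of those tested) and 266 fell (2.33%). The split between rising and falling genes depended on the scaling: it was 677 to 266 here, 674 to 39 on the deposited values and 589 to 655 after median centring. Among the risers were 25 of the 26 other smooth muscle genes, 24 of 25 matrix genes, 8 of 15 neuron and glia genes and 6 of 12 endothelial genes. Tpm2, a muscle tropomyosin, had a slope of 1.30 ± 0.06 (SE, adjusted p of limma = 1.11e-06) log2 units per log2 unit of Myh11. The slope of Cnn1 was 1.34 ± 0.07 (SE, adjusted p of limma = 2.57e-06). The calls at this threshold rested on rat 3: without that array 1 gene was called, Tagln, and without rats 3 and 6 the same 1. Direction was kept in part. Without rat 3, slopes on Myh11 were positive for 22 of 26 smooth muscle genes and 6 of 15 neuron and glia genes, against 48.8% of all genes. Without rat 6 alone, 1566 genes were called.

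Connective tissue genes largely moved with the muscle genes, but rat 2 stood lower in them. Without rat 3, slopes on Myh11 were positive for 25 of 25 matrix genes, against 48.8% of all genes. Rat 2 was the lowest array for 23 of 25 matrix genes and 15 of 27 smooth muscle genes, against 1251 of all 11441 genes. Decorin (Dcn), a small proteoglycan of collagen fibres, was highest in rat 3 at 11.93 and lowest in rat 2 at 5.66, with the other 7 between 7.52 and 8.21. Lumican (Lum), a related proteoglycan, showed the same order at its ends, 11.72 in rat 3 and 5.30 in rat 2, with 7.84 to 9.44 between them. Without rat 3, 15 of 25 matrix genes still had a 4-fold range, against 10 of 27 smooth muscle genes and 1 of 15 neuron and glia genes, and 449 of all 11441 genes. Rat 2 was therefore low in matrix genes, and its median deviation over that list was −1.82 on the log2 scale, against 2.61 in rat 3. Nerve genes were mixed. Rat 3 was the highest array for 10 of 15 neuron and glia genes and the lowest for 1, against 2370 and 2989 of all 11441 genes. Some were nearer to an all-or-none pattern. Peripherin (Prph), a neuronal intermediate filament, read 9.58 in rat 3 and 4.88 to 5.81 in the others. The neuropeptide galanin (Gal) read 8.79 in rat 3 against 4.81 to 6.19, and vasoactive intestinal peptide (Vip) 8.01 against 4.21 to 6.09. Macrophage genes joined in part, with 5 of 14 rising with Myh11 against 5.92% of all genes, among them C1qa of the complement cascade, at 10.51 in rat 3 and 7.45 to 9.08 elsewhere.

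Small heat shock proteins were among the genes that rose with Myh11. Of 22 chaperone and heat shock genes measured, 7 rose, against 5.92% of all genes, and they were Hspb1, Hspb8, Hspa2, Cryab, Serpinh1, Dnajb4 and Hspa1a; Dnaja4 fell. Several of these are textbook muscle or matrix proteins: Cryab and Hspb8 are chaperones of muscle filaments and Serpinh1 folds collagen. Hspb1 read 10.79 in rat 3 and 5.13 to 7.09 in the rest, without overlap. The stress-inducible chaperone Hspa1a ran from 7.79 (rat 6) to 9.91 (rat 3), with a median of 8.44. No gene was called with Hspa1a as the reference (0% rising and 0% falling), although 1626 genes had an unadjusted p below 0.05. That count was not stable: without rat 6, 940 genes were called, and on the deposited scaling 11. Myh11 and Hspa1a were correlated over the 9 arrays with Pearson's r = 0.853 (exact permutation p = 0.00624, adjusted over 10 pairs 0.0312) and Spearman's rho = 0.567 (exact p = 0.121, adjusted 0.603). Rat 3 stood apart in Myh11. Without rats 2 and 3, the 2 arrays farthest from the median of Myh11, r was 0.729, and within the 7 arrays other than rats 3 and 6 it was 0.671 (exact p = 0.0998, adjusted over 10 pairs 0.499).

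Because smooth muscle genes are known for CArG boxes, the sites of serum response factor, the 250 bases before each gene's start were searched for that motif. Only its strict form was counted, CCWWWWWWGG with W for A or T, which reads the same on both strands as a pattern. Looser forms with a G or C in the middle run, such as CCCTATATGG in the window of Acta2, were not counted. RefSeq promoter sequences (build GRCr8) were matched for 22 of the 27 measured genes. Of the 22, 1 held the strict form, against 412 of 27457 promoters in all (1.5%). The match was in Ldb3, which encodes a Z-disc protein, at 52 bases before the start (GRCr8, chromosome 16, 9924680 to 9924929, minus strand), and it is shown in capitals because it is the list's only match.
Ldb3: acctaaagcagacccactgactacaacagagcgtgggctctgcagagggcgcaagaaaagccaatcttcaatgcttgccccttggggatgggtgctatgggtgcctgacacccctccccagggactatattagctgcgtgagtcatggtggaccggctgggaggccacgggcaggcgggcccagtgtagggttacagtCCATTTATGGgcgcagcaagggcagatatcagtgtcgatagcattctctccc
Ldb3 itself rose with Myh11, with a slope of 0.42 ± 0.08 (SE, adjusted p of limma = 0.00967), which was -0.014 without rat 3. A match is a run of letters and no evidence of binding, and promoters without one say only that these letters are not in this window.

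Lymphoid genes split the rats in another way, into arrays with high and with low B-cell signal. Ms4a1, which encodes the B-cell surface protein CD20, read 8.75 in rat 1, 8.09 in rat 4, 9.19 in rat 6, 9.07 in rat 7 and 9.64 in rat 10. In rats 2, 3, 5 and 8 it lay between 5.24 and 5.99, so the arrays fell apart with no value between 5.99 and 8.09. Cd79b, a chain of the B-cell receptor, showed the same rats high, at 7.46 to 9.15, and the same 4 low, at 4.15 to 4.72. For Cr2, the complement receptor of B cells and follicular dendritic cells, the high arrays lay between 8.81 and 10.03 and the low ones between 5.35 and 6.36; its 4 probe sets correlated at 0.92 or above. Cxcl13, the chemokine that draws B cells into follicles, ran from 5.91 to 10.27 with the same division. The labels used here give no grouping of these rats.

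Fitted on Ms4a1, 62 genes rose (0.542% of those tested) and 1 fell (0.00874%), Fzd1, a Wnt receptor. Of the 18 other B-cell and follicle genes measured, 10 rose: Cd79b, Cr2, Cxcl13, Pou2af1, Fcer2, Bank1, Cd37, Ltb, Cd22 and Fcrla. Cd79b had a slope of 1.18 ± 0.08 (SE, adjusted p of limma = 6.48e-05) on Ms4a1. The slope of Pou2af1, a B-cell coactivator needed for germinal centres, was 0.81 ± 0.07 (SE, adjusted p of limma = 0.000308). Fcmr, the IgM Fc receptor, and Glycam1, a ligand that lets lymphocytes enter through high endothelial venules, rose too; Glycam1 read 7.95 to 9.91 in the 5 arrays with high Ms4a1 and 6.23 to 6.62 in the other 4. Leaving out rat 3 raised the count to 173, and it fell to 24 without rat 10, 29 without rat 6, 37 without rat 7, 39 without rat 2 and 40 without rat 8; 11 B-cell genes were called without rats 3 and 6, where 127 genes were called in all and 60 of the 63 were among them.

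T-cell genes were high in fewer rats than B-cell genes. Cd3e, a chain of the T-cell receptor complex, read 8.66 in rat 6, 8.04 in rat 7 and 9.05 in rat 10, against 5.21 to 6.79 in the other 6. Tcf7, a factor of naive and memory T cells, read 9.81 to 10.13 in the same 3 rats and 6.85 to 8.20 in the rest. Rats 1 and 4, whose B-cell genes were high, thus lay with the low arrays for these T-cell genes, with 6.79 and 6.02 for Cd3e. Of 21 T and NK cell genes, 11 had a 4-fold range, against 7.84% of all genes, and 3 rose with Ms4a1 (Cd3e, Tcf7 and Gimap4), against 0.542%. The chemokines of the T-cell zone were highest in rats 6 and 10, where Ccl19 read 8.64 and 9.87 against 4.81 to 7.54 elsewhere. Among plasma cell genes, Jchain, which joins IgA dimers, was highest in rat 3 at 10.97 and lowest in rat 8 at 9.0, with a median of 10.28, so it did not divide the rats as Ms4a1 did. Of 6 plasma cell genes 0 were called with Ms4a1, a count too small to set against the 0.542% of all genes.

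The distal arrays of the same rats did not keep this division. In rats 2, 3, 5 and 8, whose proximal arrays were low in Cd79b, the distal arrays read 7.36, 6.80, 9.0 and 8.47. Rats 6 and 7, high proximally, read 6.44 and 6.24 distally, the lowest distal values of the 9. Rat 10 was the highest proximally, at 9.15, and read 8.77 distally, where rat 5 was the highest. Each region was normalized by itself, so the order of the rats can be read across the regions and the levels cannot.

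Hoxb13 and several distal colon markers were lowest in rats 3 and 6, but the posterior Hox genes as a group did not place these rats together. Of 5 posterior Hox genes, rat 3 was the highest array for 3 (Hoxa10, Hoxa11 and Hoxd10) and rat 6 the lowest for 4, with median deviations of 0.46 and −0.88 on the log2 scale. Hoxb13, the most posterior Hox gene of the B cluster, read 4.60 in rat 3 and 4.28 in rat 6, both below the level of 5.61 used to filter probe sets on their mean. Rat 5 had 6.72 and the other 6 lay between 8.84 and 9.61. In the distal arrays of rats 3 and 6 the same gene read 11.64 and 11.53, the 2 lowest values of a narrow distal range up to 11.98. Hoxb6, a more anterior member, was high where Hoxb13 was low, at 11.69 in rat 6, 10.70 in rat 3 and 10.35 in rat 5, against 7.93 to 9.64 in the other 6. So rats 3, 5 and 6 were the 3 lowest arrays for Hoxb13 and the 3 highest for Hoxb6.

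Atp12a, Scnn1a, Slc15a1 and Aqp8 of the distal colon marker list, and Sval1, were low in the same arrays as Hoxb13. Atp12a, the colonic proton-potassium pump, read 5.10 in rat 3 and 5.34 in rat 6, against 8.01 to 10.03 in the other 7. Sval1, a seminal vesicle autoantigen-like gene, read 4.93 in rat 6, 6.59 in rat 3 and 8.58 in rat 5, with the other 6 between 10.58 and 11.87. Scnn1a, the alpha subunit of the epithelial sodium channel, stood at 8.43 and 8.76 in rats 3 and 6, against 10.19 to 10.84 in the others. The peptide transporter Slc15a1 read 5.16 and 4.81 in those 2 rats and 6.90 to 8.16 in the rest, and the water channel Aqp8 6.16 and 6.37 against 8.27 to 10.20. For each of these genes rats 3 and 6 did not overlap with the other 7 proximal arrays. For Aqp8 the distal arrays read 7.75 to 8.97, which overlaps with those 7, with each region normalized by itself.

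Fitted on Hoxb13, 291 genes rose (2.54% of those tested) and 173 fell (1.51%); the split was 111 to 46 on the deposited scaling and 627 to 105 after median centring. Of 22 distal colon markers measured, 12 rose and 0 fell, and of 22 proximal markers 3 fell and 0 rose; these lists were drawn from an earlier comparison of the regions in this series and are not independent evidence of direction. B3gnt7, a glycosyltransferase, had a slope of 0.64 ± 0.04 (SE, adjusted p of limma = 5.55e-05) log2 units per log2 unit of Hoxb13. Atp12a had 0.81 ± 0.09 (SE, adjusted p of limma = 0.00203). Of the 4 other posterior Hox genes 0 were called. Among the falling genes were Hoxb6, Hoxd8 and Hoxb3 of the 11 anterior and central Hox genes; Osr2, a zinc finger factor, with -0.54 ± 0.06 (SE, adjusted p of limma = 0.00293); and Slc4a4, a bicarbonate transporter, with -0.26 ± 0.03 (SE, adjusted p of limma = 0.00419). Osr2 was highest in rats 3 and 6, at 10.04 and 10.68, against 6.90 to 9.0.

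The axial calls rested largely on rats 3 and 6. Without these 2 arrays 1 gene was called, Slc34a2. With 1 array left out, the count of 464 fell to 195 without rat 3, 215 without rat 4, 230 without rat 8, 250 without rat 7 and 281 without rat 2. It rose to 645 without rat 6, of which 251 were among the 464, and to 567 without rat 5. Among the 7 arrays other than rats 3 and 6 the slope on Hoxb13 was positive for 19 of 22 distal markers and 2 of 22 proximal markers, against 50.7% of all genes tested. Over all 9 arrays the counts were 21 and 3, against 52.5% of all genes. The median slope of the distal markers was 0.31 over 9 arrays and 0.15 over these 7. The proximal colon's antibacterial lectins varied most among the proximal markers. Reg3g, which kills gram-positive bacteria, ran from 6.55 in rat 4 to 11.76 in rat 6 with a median of 10.11. Its relative Reg3b read 10.79 and 11.19 in rats 3 and 6 against 6.93 to 9.69. Neither passed the test with Hoxb13 (adjusted p of limma = 0.116 and 0.0942). Cyp4f1, a fatty acid hydroxylase, ran from 10.66 to 12.18 (median 11.39). Fabp1, a cytosolic carrier of fatty acids, ran from 10.43 to 12.82 (median 11.78), which is more than 4-fold.

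Muscle and axial genes overlapped in rat 3 but came apart in rat 6. Rat 6 shared the low Hoxb13 of rat 3, yet its smooth muscle genes lay with the other rats: Actg2 read 6.45 and Des 7.12. Among the other posterior Hox genes, Hoxd10 was highest in rat 3 at 9.47, against 5.38 to 6.58, and rose with Myh11, with a slope of 0.68 ± 0.11 (SE, adjusted p of limma = 0.00396). Hoxa10 was low in rat 6 alone, at 9.22, and highest in rat 3, at 10.56, with 10.04 to 10.32 in the other 7. Hoxa11 likewise read 6.26 in rat 6 and 7.90 in rat 3, with 6.94 to 7.54 between them.

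Several genes of the p53 response to DNA damage were lowest in rats 3 and 6, while others were not. Of the 18 measured, rat 6 was the lowest array for 7 and rat 3 for 5, against 1484 and 2989 of all 11441 genes. The share for rat 3 was thus close to that of all genes, while that for rat 6 was higher. Rat 6 was the highest array for 3 of the 18, Sesn1, Tnfsf10 and Mgmt. Cdkn1a, the p21 inhibitor of cell division, read 10.14 in rat 3 and 10.09 in rat 6, against 11.07 to 11.82 in the other 7 (median of all 9, 11.32). The stress cytokine Gdf15 stood at 6.14 and 6.07 in the 2 rats and 7.46 to 8.16 in the others. Plk2, a p53-induced kinase, read 8.69 and 8.35 against 9.60 to 10.27. In all 3 genes rats 3 and 6 lay below every other array, although every animal had received the same dose at the same time before death. Of the 18 p53 genes measured, 6 rose with Hoxb13 (Cdkn1a, Gdf15, Plk2, Epha2, Aen and Ccng1) and 0 fell, against 2.54% of all genes rising. Mdm2, the ubiquitin ligase that restrains p53, missed the threshold, with a slope of 0.11 ± 0.03 (SE, adjusted p of limma = 0.0526). The apoptosis gene Bbc3 read 8.07 in rat 3 and 8.68 to 9.32 elsewhere, and it fell with Myh11 (adjusted p of limma = 0.043) and missed the threshold with Hoxb13 (0.0532). Some other measures were alike in these 2 arrays and some were not. The median deviation of the 22 distal colon markers was −0.74 in rat 3 and −1.23 in rat 6, lower than in any other array. The median deviation of the 27 smooth muscle genes from their means was 3.51 in rat 3 and −0.40 in rat 6, that of the 25 absorptive colonocyte genes −0.35 and −0.03, and the 3′ to 5′ ratio of Gapdh 1.28 and 1.19. Smooth muscle in rat 6 and the Gapdh ratio in rat 3 lay inside the range of the other 7, and the Gapdh ratio of rat 6 was the lowest of all 9. The actin ratio was 1.95 in rats 3 and 6, inside the range of the other 7 (1.80 to 2.40). The part of these measures in the low p53 genes was not tested. Without rats 3 and 6, 0 of the 18 p53 genes were called with Hoxb13, and the slope of Aen, an exonuclease gene, turned negative.

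In the distal colon these 2 rats did not both lie below the others in the same genes. Cdkn1a read 11.93 in the distal array of rat 3, the second highest of the 9. In rat 6 it read 11.35, the lowest, with rats 1 and 2 at 11.35 and 11.36 and a highest value of 11.99. For Gdf15 the distal values were 7.75 in rat 3, the lowest, and 8.03 in rat 6, with the others between 7.83 and 8.67. Plk2 read 10.33 in rat 3 and 9.57, the lowest, in rat 6, with 9.84 to 10.61 in the other 7. In each gene rat 3 or rat 6 was the lowest distal array, and in none did both lie below the other 7. No difference between the regions was tested.

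Immediate early genes showed part of the same pattern. These genes are switched on within minutes by growth signals and stress, and also by handling of tissue. Fos, a subunit of the AP-1 factor, read 9.61 (rat 3) and 9.88 (rat 6), against 10.57 to 11.77 among the remaining 7, with rat 8 highest. Jun, its partner, read 9.92 and 10.08 against 10.56 to 11.25. Egr1, an early growth response factor, did not separate these rats: it lay between 10.48 and 11.34 with 10.59 and 10.67 in rats 3 and 6. Atf3, a stress-induced factor, was lowest in rat 6 at 7.02 and highest in rat 8 at 9.11, with a median of 7.96.

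Of 37 immediate early genes, 8 rose with Hoxb13 (Fos, Fosl2, Jun, Junb, Ier2, Klf4, Nr4a2 and Gadd45a) and 0 fell, against 2.54% of all genes rising. With Fos as the reference, 156 genes rose (1.36%) and 95 fell (0.83%), and 6 of the 36 other immediate early genes were among the risers, with 5 of 18 p53 genes and 7 of 22 distal colon markers. Jun had a slope of 0.56 ± 0.09 (SE, adjusted p of limma = 0.0297) on Fos. This split also moved with the scaling, to 249 and 12 on the deposited values and 1981 and 301 after median centring. The count for Fos fell to 0 without rat 3, 4 or 6, to 1 without rat 2, to 2 without rat 7 and to 165 without rat 1, and rose to 562 without rat 8. Over the 9 arrays Hoxb13 and Fos were correlated with Pearson's r = 0.889 (exact permutation p = 0.00222, adjusted over 10 pairs 0.0222) and Spearman's rho = 0.833 (exact p = 0.00827, adjusted 0.0827). The relation rested on rats 3 and 6, which stood apart in Hoxb13: within the other 7 arrays r was 0.558 (exact permutation p = 0.212, adjusted over 10 pairs 0.648) and Spearman's rho 0.679 (exact p = 0.11, adjusted 0.829), and r was 0.321 without the 2 arrays farthest from the median. Among those 7 arrays 0 genes were called with Fos and 329 had an unadjusted p below 0.05; slopes on Hoxb13 were positive for 27 of 37 immediate early genes and 12 of 18 p53 genes, against 50.7% of all genes.

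**Figure D3:**
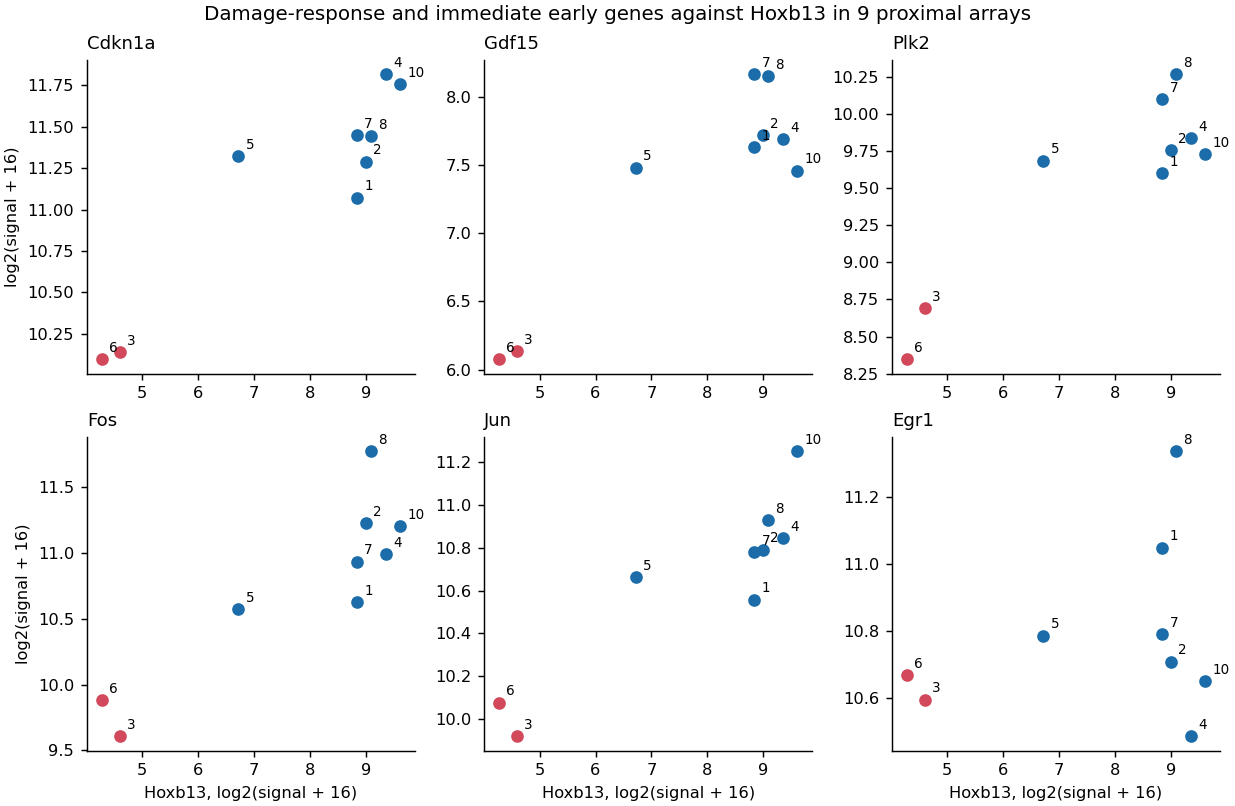
Levels of 3 p53-response genes (Cdkn1a, Gdf15, Plk2) and 3 immediate early genes (Fos, Jun, Egr1) against Hoxb13 in the 9 proximal arrays, both axes in log2(signal + 16); points are single rats, numbered, with rats 3 and 6 in red. Rats 3 and 6 are lowest in all but Egr1, which lies between 10.48 and 11.34 whatever the Hoxb13 level.

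Pancreatic digestive enzymes appeared in the proximal array of 1 rat. Trypsinogen (Prss1) read 10.88 in rat 4 and 4.56 to 6.04 in the other 8. The elastase Cela2a read 10.70 in rat 4 against 4.21 to 5.90, and pancreatic lipase (Pnlip) 10.32 against 5.07 to 6.21. These values overlapped with no other array, and 12 genes formed a cluster of this shape: Prss1, Cela2a, Cpb1, Pnlip, Cel, Clps, Pla2g1b, Ctrl, Ctrc, Cela3b, Sycn and Rnase1l2. The distal array of rat 4 read 5.40 for Prss1 and 5.56 for Cela2a, within the ranges of the other distal arrays (4.39 to 5.58 and 4.29 to 5.66). Reg1a, a protein of pancreatic acinar and regenerating cells, also peaked in rat 4, at 8.38 against 5.38 to 6.09. Rat 4 did not stand out in smooth muscle genes, with 8.99 for Actg2.

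Since these genes moved together, their promoters were searched for CACCTG, an E box bound by helix-loop-helix factors, on both strands (CAGGTG on the other). RefSeq (GRCr8) sequences were matched for 9 of the 12, and 5 of the 9 held at least 1 match in the 250 bases before the start, against 15.6% of all 27457 promoters. The set was chosen by its values, so the share is a description. Promoters of Prss1 (chromosome 4, 71330999 to 71331248, plus strand) and Cpb1 (chromosome 2, 104714663 to 104714912, minus strand) are shown as examples of the cluster, with the E box in capitals at 181 and 157 bases before the start.
Prss1: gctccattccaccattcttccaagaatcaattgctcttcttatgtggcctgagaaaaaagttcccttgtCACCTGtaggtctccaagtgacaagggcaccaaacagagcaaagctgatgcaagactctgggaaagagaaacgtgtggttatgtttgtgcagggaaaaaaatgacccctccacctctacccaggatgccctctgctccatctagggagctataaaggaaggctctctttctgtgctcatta
Cpb1: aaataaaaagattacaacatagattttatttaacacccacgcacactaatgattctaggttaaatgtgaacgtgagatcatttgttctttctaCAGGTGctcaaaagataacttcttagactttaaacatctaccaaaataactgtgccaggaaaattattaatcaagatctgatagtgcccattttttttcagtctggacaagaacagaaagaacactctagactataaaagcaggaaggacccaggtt
A match in these windows is a description of letters and not of binding.

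Some genes kept the same rats high or low in both regions. Over all 11441 genes the median correlation of proximal with distal level across the 9 rats was 0.27, and 113 genes (0.988%) reached 0.9; among the 897 genes with a 4-fold range, 19 did (2.12%). These 19 were chosen by that value, so they are described without a test. Of the 20 most variable genes, each tested for this relation over the 9 rats with an exact permutation test, 4 had an adjusted p below 0.05 by Pearson's r (Btnl8, Sv2b, RT1-Bb and Igfbp2) and 0 by Spearman's rho, where the lowest adjusted p was 0.0615. Igfbp2, an insulin-like growth factor binding protein, had r = 0.799 (exact p = 0.00565, adjusted 0.0282) and rho = 0.817 (exact p = 0.0108, adjusted 0.0718), and r was 0.77 without rats 3 and 6, the 2 arrays farthest from its median. The values of the other 3 fall into separate clusters of rats, so they are given instead of a pooled correlation. Btnl8, a butyrophilin-like gene of gut epithelium that governs resident T cells, read 5.78, 5.47 and 4.97 in rats 1, 4 and 8, against 10.36 to 12.18 in the other 6. Its distal arrays read 4.50, 4.70 and 5.25 in the same 3 rats and 10.80 to 11.79 in the others. The same 3 animals were thus low in both regions, and no rat lay between.

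Fam111a, a protease gene, split the rats 4 to 5. It read 7.95 to 8.24 in rats 1, 3, 5 and 8, against 11.06 to 11.47 in the other 5, and the distal arrays gave 6.90 to 7.35 and 10.05 to 10.66 for the same sets. Ephx2, soluble epoxide hydrolase, was low in rat 4 alone, at 6.80 against 8.70 to 10.10 proximally and 6.27 against 8.55 to 9.16 distally. Sv2b, a synaptic vesicle protein, was high in rats 1, 2, 5 and 6, at 11.70 to 13.31, and lay at 7.89 to 8.45 in the other 5; distally the same 4 rats read 10.53 to 11.83 and the other 5 7.81 to 8.86. Adh4, an alcohol dehydrogenase, was low in rats 3 and 6 in both regions, at 4.96 and 4.56 proximally and 5.91 and 5.17 distally, against 7.00 to 7.65 and 7.68 to 8.33. The 2 rats lay below the other 7 in both regions.

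Histocompatibility genes made up a further share of the 19, with RT1-Bb, RT1-Ba, RT1-A, RT1-CE12, RT1-CE16 and H2-Q7-ps1. RT1-A, a classical class I gene, was low in rat 6 alone, at 7.12 against 9.54 to 10.36 proximally and 6.34 against 9.23 to 9.89 distally. RT1-Bb, a class II beta chain, was high in rats 2, 5, 6 and 7, at 9.17 to 11.86, and 5.19 to 5.94 in the other 5; the distal arrays gave the same division. The other probe set of RT1-Bb correlated with this one at −0.34, and probe sets of RT1-Ba disagreed as well, with a lowest correlation of −0.49. Genes of this family share near-identical copies, so these levels are uncertain, and which copy a probe set reads was not tested.

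**Figure D4:**
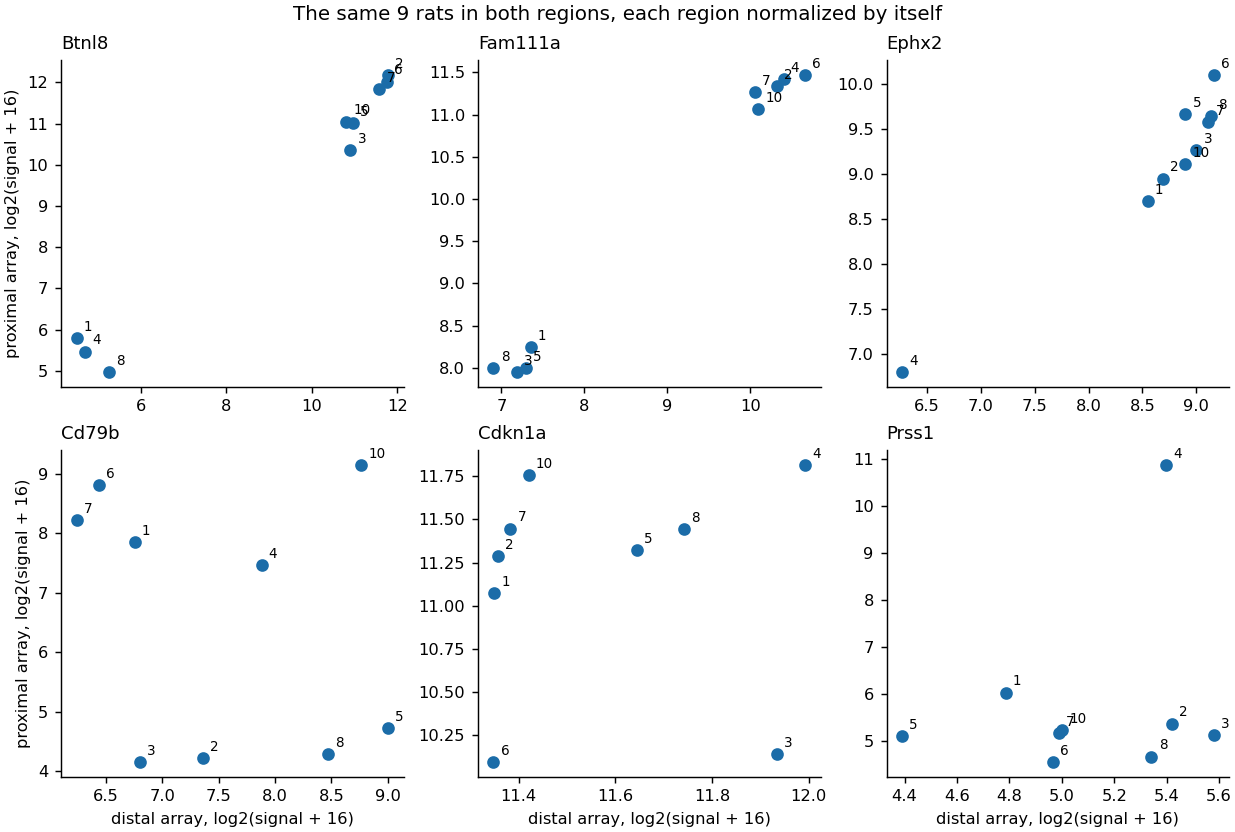
Levels in the proximal array (y axis) against the distal array (x axis) of the same rat, both in log2(signal + 16) with each region normalized by itself, for 6 genes; points are the 9 rats, numbered. Btnl8, Fam111a and Ephx2 keep the same rats low in both regions, while Cd79b and Prss1 do not, and in Cdkn1a rat 3 is low proximally and high distally.

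Absorptive, goblet, cell cycle and cholesterol synthesis genes seldom had a 4-fold range. In contrast, 12 of 22 distal colon markers had one, with a median SD of 0.74, as did 8 of 13 antibacterial genes. Absorptive colonocyte genes had a median SD of 0.20 and 1 of 25 had a 4-fold range, and goblet cell genes 0.21 and 1 of 15, close to or below the 0.22 of all genes. Spink4, a goblet cell protease inhibitor, was that one, at 8.02 to 10.18 with a median of 8.45, highest in rat 1. Rat 3 was the lowest array for 20 of the 25 absorptive genes, against 2989 of all 11441 genes. Cell cycle genes had 0 of 37 with a 4-fold range and a median SD of 0.25. Rat 10 was the lowest array for 23 of the 37, against 1508 of all 11441 genes. Mki67, the proliferation antigen, ran from 8.72 in rat 10 to 9.85 in rat 3 with a median of 9.15. Top2a, the DNA topoisomerase of dividing cells, was the 1 cell cycle gene that fell with Hoxb13, with a slope of -0.14 ± 0.03 (SE, adjusted p of limma = 0.0399). Cholesterol synthesis genes had 0 of 20 with a 4-fold range and a median SD of 0.24.

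Hormone cell genes had larger SDs than the absorptive and goblet lists. The SDs of the 15 enteroendocrine genes measured started at 0.398, with a median of 0.55, and 2 had a 4-fold range, against 7.84% of all genes. Chga, the general secretory granule protein, ran from 8.88 in rat 3 to 10.59 in rat 6 (median 10.07) and Gcg, the glucagon precursor, from 7.81 in rat 3 to 9.73 in rat 1 (median 8.82). Cck, the cholecystokinin gene, rose with Hoxb13, with a slope of 0.25 ± 0.04 (SE, adjusted p of limma = 0.0107). Peptide YY (Pyy) read 8.49 in rat 10 and 10.22 in rat 1, with a median of 9.45. Rats 1 and 10 thus lay at opposite ends for Pyy, and rat 3 was the lowest for Chga, Gcg and Cck. Hormone cell genes were not low in rat 3 as a group: it was the lowest array for these 3 of 15 and the highest for 4, Sst, Pcsk1n, Scg3 and Scg5.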

How the data were processed

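RNA from scraped proximal colon mucosa of 9 rats was measured on Affymetrix rat arrays. The authors deposited 1 signal intensity per probe set and array; the submitters' processing notes name MAS5, and its version and scaling were not given in the sources used here. Trimmed means of the arrays (2% at each end) ran from 257 to 340, so log2(intensity + 16) was quantile-normalized over the 9 arrays. Of 31042 probe sets that are not controls, 21730 passed the filter on the lowest 30% of means (level 5.61). The array annotation gave 1 symbol for 20826 probe sets, several for 436 and none for 9780; a RefSeq gene table (GRCr8, names only) matched 20758 and changed 0. For each gene the brightest probe set by mean was taken, leaving 11441 genes, of which 3196 had several probe sets.

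Slopes on 1 reference gene (Myh11, Ms4a1, Hoxb13, Hspa1a or Fos) came from limma 3.58.1 (R 4.3.3). The fit used lmFit and eBayes with trend, two-sided, with Benjamini-Hochberg adjustment over probe sets. It was also run on simulated data with known slopes and independent noise in each probe set. Correlated genes were not simulated, so that run cannot vouch for the calls made here. Correlations used two-sided exact permutation tests. Precision is limited by the number of arrays. Distal arrays were normalized separately. Named genes were the 20 most variable, the 15 brightest, the steadiest 8 of the brighter genes (top 25% by mean), up to 4 variable and 2 bright members of each of 30 lists, the 6 strongest calls per reference and direction, and fixed genes. Genes that share their pattern with the distal arrays, the cluster members, Egr1, Glycam1, Ccl19, Ldb3 and genes given as the sole call of a setting were picked with their values in view. The members and lists were chosen with earlier results of these data known. Alternatives were the scaling, pseudocount, filter, probe set rule and leaving out rats. Columns of no sample numbered 0.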

Additional observations from a re-analysis of the deposited data

Results flagged for a closer look

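The gap between the highest or lowest array and its nearest neighbour, as a share of the whole range of the 9 arrays, exceeded Dixon's 95% critical value for 21 of the 80 genes given with values; by chance about 1 in 20 groups would. That rate does not apply to these genes, many of which were chosen for their spread, for moving together or with their values in view, so the number is a description. The shares are given in brackets. Rat 3 was the highest array for Prph (0.801), Hoxd10 (0.705), Ldb3 (0.693), Cnn1 (0.69), Des (0.668), Hspb1 (0.654), Gal (0.653), Myh11 (0.626), Tpm2 (0.615), Actg2 (0.613), Dcn (0.593) and Vip (0.504). Rat 3 was the lowest array for Isg15 (0.533). Rat 4 was the highest array for Pnlip (0.783), Prss1 (0.767), Reg1a (0.764) and Cela2a (0.741). Rat 4 was the lowest array for Ephx2 (0.575). Rat 6 was the highest array for Mcpt1 (0.519). Rat 6 was the lowest array for RT1-A (0.747) and Hoxa10 (0.611). The genes of rat 3 are smooth muscle, matrix, nerve, small heat shock and interferon genes and Hoxd10, and those high in rat 4 are pancreatic. RT1-A and Ephx2 were low in the distal array of the same rat as well.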

How the results depend on the processing

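Leaving out 1 rat at a time gave 195 to 645 genes called with Hoxb13 (464 in the report's setting), 1 to 1566 with Myh11 (943), 24 to 173 with Ms4a1 (63), 0 to 940 with Hspa1a (0) and 0 to 562 with Fos (251), and 449 to 881 genes with a 4-fold range (897). Without rats 3 and 6 the counts were 1 for Hoxb13, 1 for Myh11, 127 for Ms4a1, 0 for Fos and 359 genes with a 4-fold range; fewer samples entered these fits. For Hoxb13, 157 genes were called on the deposited scaling, 732 after median centring and 306 with a pseudocount of 64. For Fos, 2282 were called after median centring, 116 without the filter and 380 with the lowest 50% left out. With the lowest 50% left out, 39 genes were called with Ms4a1 and 490 had a 4-fold range; with a pseudocount of 64, 472 had one. On the deposited scaling 11 genes were called with Hspa1a. Where no construction of the setting shows it, the cause was not tested. The first component's share of variance (share of variance on component 1, in percent) ran from 33.8 to 49.0 over all settings. Of the slopes and SDs of single genes, 1542 values kept direction and side, or stayed within 1.5 times, and 47 lost the threshold, 6 gained it and 84 SDs moved further. These counts pool all settings. Without rats 3 and 6, 6 slopes kept direction and side, 12 lost the threshold and 2 reversed. In that setting 44 SDs moved further and 36 did not. The slope of Ldb3 on Myh11 ran from -0.01 to 0.48 with 1 rat left out, and was -0.014 without rat 3 and -0.035 without rats 3 and 6; the slope of Aen on Hoxb13 was -0.039 without rats 3 and 6. No paired analysis was possible because 1 region was described and no groups were compared. Levels near the filter level are compressed by the pseudocount, and 1 array per rat leaves the error of a single array unknown.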

Other observations

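Of 24 interferon-induced genes measured, 3 had a 4-fold range (Isg15, Gbp2 and Cxcl10), close to the 7.84% of all genes, and 2 fell with Myh11 (Isg15 and Mx1), against 2.33% of all genes and 0 of the 24 without rat 3. Isg15, a ubiquitin-like protein, was lowest in rat 3 at 6.61, against 7.88 to 9.0 in the other 8, with a slope of -0.41 ± 0.07 (SE, adjusted p of limma = 0.00562) on Myh11. The chemokine Cxcl10 was lowest in the same rat at 7.73 and highest in rat 7 at 9.93, with a median of 8.97. For 5 of 10 mast cell and eosinophil genes rat 6 was the highest array, as it was for 1639 of all 11441 genes, with a median deviation of 0.51 on the log2 scale, and Mcpt1, a mast cell protease, read 11.59 there against 9.62 to 10.57. Of 15 circadian genes, 1 had a 4-fold range (Bhlhe41), near the 7.84% of all genes, and Per1 ran from 7.64 in rat 6 to 9.08 in rat 5 with a median of 8.39.

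Of 22 genes of the unfolded protein and amino acid response, 2 rose with Hoxb13 (Trib3 and Herpud1), against 2.54% of all genes, and 0 without rats 3 and 6. Trib3, a pseudokinase, read 5.92 and 6.31 in rats 3 and 6 against 7.31 to 7.70. Apoa1, an apolipoprotein of the absorptive cell, read 6.96 and 6.99 in these rats against 9.32 to 11.03. Tlr4, the endotoxin receptor, read 7.86 and 8.47 there, against 9.55 to 10.30. In the distal arrays rat 3 was the lowest for Tlr4, at 9.67, while rat 6, at 10.25, lay inside the range of the other 7 (10.23 to 10.62).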
